A study of Mus musculus with 36 samples.

Results

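The genes described here are the mouse collagen chains and lysyl oxidases: every gene with the symbol of a collagen alpha chain, together with Lox and Loxl1 to Loxl4. A gene was included where its mean reached 0.5 FPKM (fragments per kilobase of transcript and per sequencing depth, a level scaled to gene length and library size) over the 18 libraries of at least 1 of 2 tables. Of 48 such genes among the 22558 listed in each table, 39 were included, 34 collagen chains and 5 lysyl oxidases. The lowest of these by the higher of their 2 means were Col15a1 (0.854 FPKM) and Col12a1 (0.967 FPKM). The other 9 (Col6a4, Col6a5, Col6a6, Col7a1, Col10a1, Col19a1, Col22a1, Col24a1 and Col28a1) were lower in both tables, the nearest being Col7a1 (0.400 FPKM) and Col24a1 (0.358 FPKM).

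The mice were C57BL/6 and received PBS, DMOG or roxadustat. Their total RNA, depleted of ribosomal RNA, was made into 36 libraries, 6 for each treatment under each of 2 tissue labels. PBS is a buffer and served as the control, DMOG (dimethyloxalylglycine) blocks many enzymes that use 2-oxoglutarate as a cosubstrate, and roxadustat is a drug that inhibits the prolyl hydroxylases of HIF, the hypoxia-inducible transcription factor. The labels give no dose, time after treatment or age, no allele beyond the strain, and no statement on whether each library is 1 animal, so every p-value measures the spread between these libraries. The 18 libraries labelled liver held the transcriptome of a retina (Sag, the rod arrestin, 2166 to 3683 FPKM and Apoa1, a hepatic apolipoprotein, at most 0.516 FPKM), and the 18 labelled retina held that of a liver (Apoa1 6299 to 12786 FPKM and Sag at most 0.473 FPKM). They are called retina RNA (label liver) and liver RNA (label retina) here, and treatments were compared within each.

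Libraries summed to 542785 to 617853 FPKM in retina RNA (label liver) and to 433021 to 540324 FPKM in liver RNA (label retina). No pair among 153 in each table was identical. Of 9 tested genes that HIF is known to induce, 9 passed the test as higher with DMOG and 8 with roxadustat in liver RNA (label retina), against 1 and 7 in retina RNA (label liver). Of all genes, 8.26% and 2.16% passed as higher in liver RNA. In retina RNA 1.07% passed in either direction with DMOG and 1.69% as higher with roxadustat. DMOG replicate 5 of the liver RNA (label retina) lay with the PBS libraries for Egln3, a HIF-induced HIF prolyl hydroxylase, at 8.23 FPKM, where the other 5 DMOG libraries had 46.4 to 72.5 FPKM and PBS had 5.19 to 8.29 FPKM. In retina RNA (label liver), crystallins and other lens markers varied widely between libraries, and DMOG replicate 3 held far more type IV collagen RNA than the other DMOG libraries. Results that rest on these libraries are given with and without them.

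Collagens are the structural proteins of the extracellular matrix, built from chains that wind together into a helix. Fibrillar chains form the fibres of connective tissue, FACIT chains decorate those fibres, type IV chains form the sheet of basement membranes, and multiplexins such as collagen XVIII link basement membranes to the matrix around them. Lysyl oxidases oxidise lysines of collagen and elastin outside the cell so that the fibres become crosslinked. In liver most fibrillar collagen comes from stellate cells and portal fibroblasts, and in the eye collagens II and IX belong to the vitreous. HIF is known to induce Lox, Loxl2 and the prolyl and lysyl hydroxylases that modify collagen chains in the endoplasmic reticulum, and these hydroxylases use 2-oxoglutarate themselves.

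The collagen repertoires of the 2 tissues differed in class and in rank. Of the 39 genes, 34 passed the level filter in retina RNA (label liver), 25 in liver RNA (label retina) and 20 in both. All levels given here are means over the 18 libraries of a table in FPKM, which allows genes to be compared with each other.

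In retina RNA (label liver) the highest was Col9a1, the alpha 1 chain of the FACIT collagen IX, at 69.8 ± 16.2 FPKM (SD, n = 18, range 45.1 to 111). Next came Col4a1 at 31.0 FPKM with a range of 6.41 to 86.2 FPKM, then Col9a3 at 19.5 FPKM, Col4a2 at 19.0 FPKM and Col23a1, a transmembrane collagen, at 18.3 FPKM. The ranges of neighbours in this order overlapped. In the DMOG libraries other than replicate 3, Col4a1 had 6.41 to 8.15 FPKM and Col4a2 had 4.37 to 5.82 FPKM. These values lay below the lowest value of Col23a1 in any library (14.8 FPKM). The part of lens tissue in the mean levels of the type IV chains was not tested. FACIT chains made up 40.8% of the summed collagen FPKM on average (25.3% to 48.7% over libraries), type IV chains 22.7% (8.73% to 47.8%), fibrillar chains 11.4%, transmembrane collagens 9.88% and multiplexins 6.91%. The 3 chains of collagen IX had at most 0.161 FPKM on average in liver RNA (label retina), where Col9a1 was listed at 0 in 9 of 18 libraries. Col2a1, the fibrillar chain of cartilage and vitreous, had 15.5 FPKM in retina RNA (label liver) and was listed at 0 in 6 of 18 libraries of the liver RNA.

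In liver RNA (label retina) the highest was Col18a1, the multiplexin that carries endostatin, at 222 ± 34.3 FPKM (SD, n = 18, range 166 to 302). It stood above every other collagen in each library. Col3a1, a fibrillar chain of soft tissue, followed at 73.4 FPKM (45.0 to 106), then Col4a1 at 51.8 FPKM, Col14a1, a FACIT chain, at 42.6 FPKM and Col4a2 at 27.4 FPKM. Apart from Col18a1, neighbours in this order overlapped. The collagen I chains Col1a2 and Col1a1 had 26.3 and 16.1 FPKM. Multiplexins made up 43.0% of the summed collagen FPKM, fibrillar chains 27.1%, type IV chains 15.9%, FACIT chains 8.91% and transmembrane collagens 0.428%. Both hexagonal network chains, Col8a1 and Col8a2, stayed below the filter here and had 8.45 and 4.24 FPKM in retina RNA (label liver).

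**Figure D1:**
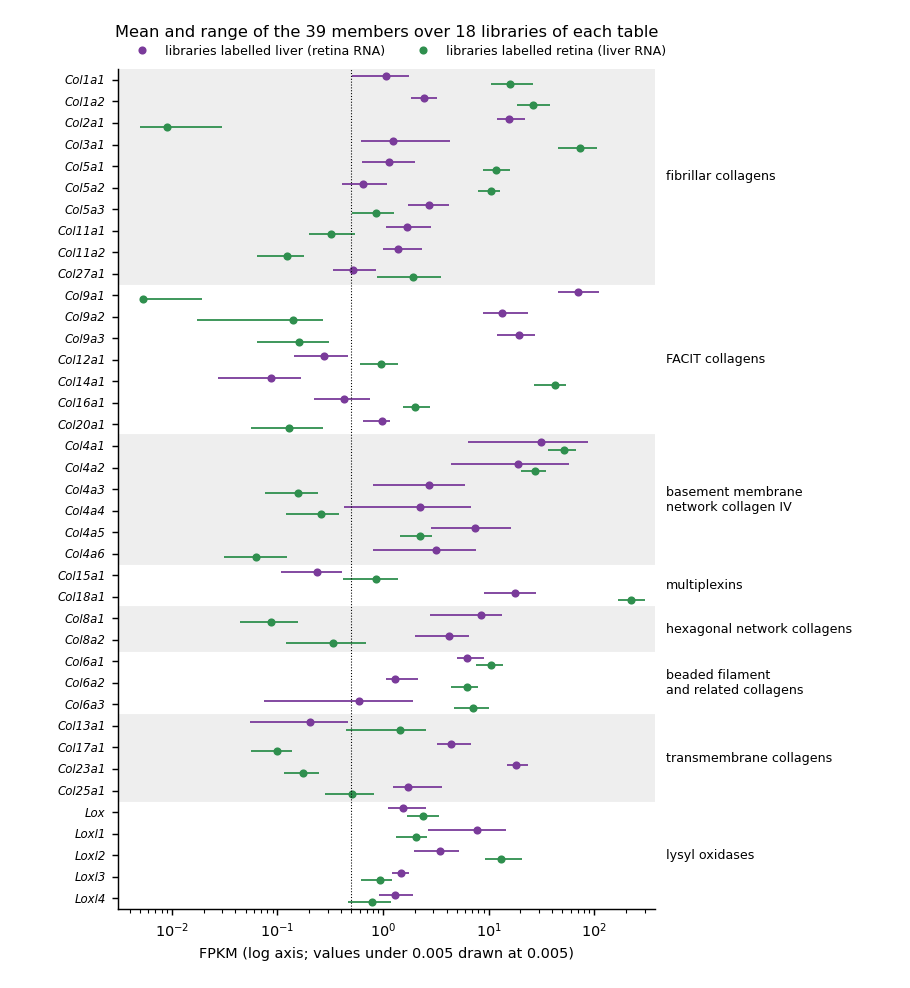
Level of each of the 39 genes in FPKM on a log axis, as the mean (point) and the range (line) over the 18 libraries of each table, ordered by class, with the level filter of 0.5 FPKM dotted. The 3 collagen IX chains and Col2a1 average at least 13.3 FPKM in retina RNA (label liver) and at most 0.161 FPKM in liver RNA (label retina), Col18a1 reaches 222 FPKM in liver RNA, and the lysyl oxidase means run from 0.793 to 13.1 FPKM.

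The lysyl oxidases differed between tissues in which member led. In retina RNA (label liver) Loxl1, an enzyme of elastic fibre assembly, was highest at 7.72 FPKM (2.69 to 14.5), and in liver RNA (label retina) Loxl2, which crosslinks collagen IV and fibrillar collagen, was highest at 13.1 FPKM (9.31 to 20.6). The type IV pair Col4a1 and Col4a2 was the only collagen pair among the 5 highest chains of both tables by mean level. In retina RNA (label liver) that rank did not hold in every library, as given above. These 2 genes lie head to head on chromosome 8 and their RefSeq starts (GRCm38.p6, a later build than that of the tables) overlap: Col4a1 starts at base 11312826 on the minus strand and Col4a2 at base 11312805 on the plus strand, so that their first 22 bases are shared.

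The promoters of Loxl4, Col5a3 and Col27a1, the genes that fell with DMOG in liver RNA (label retina), are shown from the RefSeq promoter table because HIF is known to bind the letters ACGTG and GCGTG. The 250 bases before the start site were searched on both strands (CACGT and CACGC on the other strand; ACGTG overlaps its own reverse where CACGTG occurs), and matches are in capitals. An entry was found for 28 of 39 genes, and Lox, Loxl2 and Col12a1, which rose, were not among them. Either motif was present for 11 of 28 genes (39.3%), beside 38.6% of all 32851 promoters in the table. A match describes letters only and is not a binding site.

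Loxl4, chr19:42612807-42613056, minus strand, GRCm38.p6, with GCGTG on the reverse strand at position -162 from the start site: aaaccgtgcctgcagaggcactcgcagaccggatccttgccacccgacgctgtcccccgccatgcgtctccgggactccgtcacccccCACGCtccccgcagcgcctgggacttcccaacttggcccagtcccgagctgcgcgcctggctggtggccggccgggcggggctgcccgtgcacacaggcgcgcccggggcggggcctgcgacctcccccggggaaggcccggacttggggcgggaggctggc

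Col5a3, chr9:20815068-20815317, minus strand, GRCm38.p6, with GCGTG at positions -179 and -113: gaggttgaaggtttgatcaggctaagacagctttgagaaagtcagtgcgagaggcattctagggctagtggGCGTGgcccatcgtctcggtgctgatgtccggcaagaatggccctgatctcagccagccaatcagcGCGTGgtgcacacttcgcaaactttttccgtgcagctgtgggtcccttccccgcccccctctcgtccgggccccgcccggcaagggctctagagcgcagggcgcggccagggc

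Col27a1, chr4:63215162-63215411, plus strand, GRCm38.p6, with neither motif: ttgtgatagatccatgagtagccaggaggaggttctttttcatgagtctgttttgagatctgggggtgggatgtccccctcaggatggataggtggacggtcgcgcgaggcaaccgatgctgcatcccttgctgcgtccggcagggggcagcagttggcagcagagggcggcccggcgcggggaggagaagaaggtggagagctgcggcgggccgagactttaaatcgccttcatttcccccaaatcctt

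In liver RNA (label retina), Loxl2, Lox and Col12a1 rose with DMOG, and Col27a1, Col5a3 and Loxl4 fell. This is 6 of 25 tested genes, beside 20.0% of all 12657 genes tested there (8.26% higher and 11.7% lower), so that the share was close to that of all genes. Over all 25 the median log2 fold change was -0.20, against 0.01 for all genes tested. With roxadustat Col12a1 and Loxl2 rose and Loxl4, Col27a1, Col1a2, Col6a3 and Col3a1 fell, 7 of 25 genes beside 4.19% of all genes (2.16% higher and 2.02% lower). The median log2 fold change with roxadustat was -0.22, against 0.00 for all genes, and 20 of the 25 values were negative. Fold changes are of FPKM + 0.5 on the log2 scale, which understates the change of genes near that pseudocount, and adjusted p-values are from limma with Benjamini-Hochberg adjustment over all genes tested. In bulk RNA, fewer cells of a type and less RNA per cell cannot be told apart. The PBS libraries are shared by both comparisons.

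**Figure D2:**
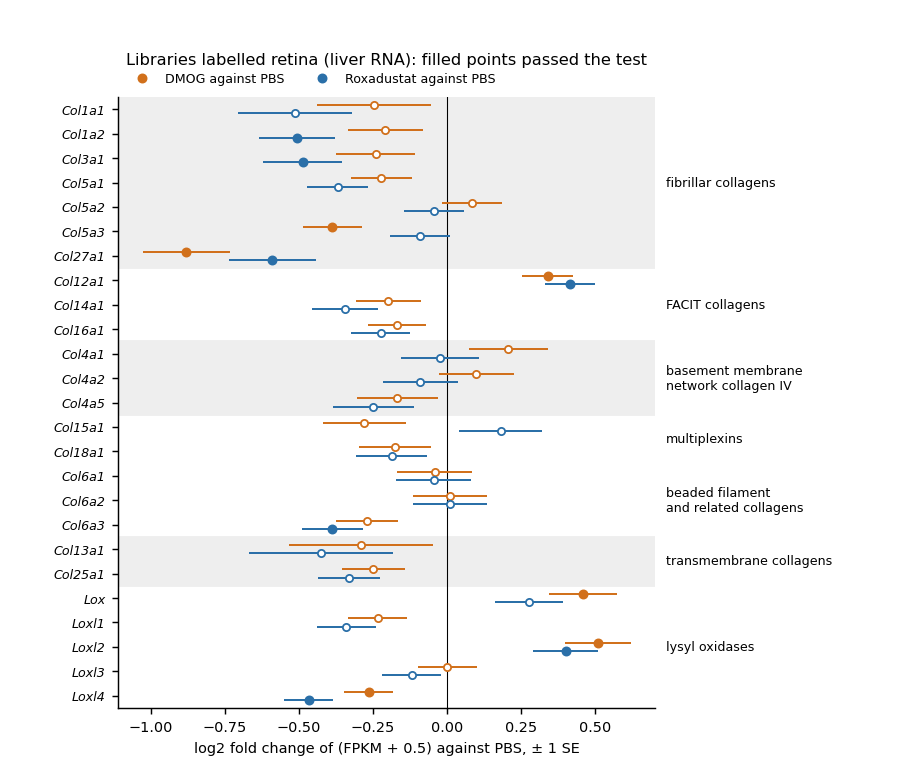
Log2 fold change of FPKM + 0.5 against PBS with its SE for the 25 genes tested in liver RNA (label retina), DMOG in orange and roxadustat in blue, 6 libraries per treatment. Filled points passed the test: 6 genes with DMOG and 7 with roxadustat, with Loxl2 and Col12a1 to the right and Col27a1 and Loxl4 to the left for both drugs.

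Loxl2 and Lox, the lysyl oxidases that HIF is known to induce, had the largest rises with DMOG among the 25 collagen and lysyl oxidase genes tested. The level of Loxl2 in liver RNA (label retina) was 9.31, 10.1 and 11.9 FPKM (lowest, median and highest of 6) with PBS, 10.8, 14.6 and 20.6 FPKM with DMOG and 11.97, 14.1 and 15.6 FPKM with roxadustat. All 6 roxadustat libraries lay above all PBS libraries, and 5 of 6 DMOG libraries did, the exception being DMOG replicate 5. Against PBS, the log2 fold change was 0.51 ± 0.11 (SE, adjusted p = 0.00408) with DMOG and 0.40 ± 0.11 (adjusted p = 0.0465) with roxadustat. The roxadustat call was close to the threshold: it was lost on leaving out any of 14 libraries, namely PBS 2 to 6, DMOG 1, 3, 4 or 6, or roxadustat 1, 2, 3, 5 or 6, and with no level filter, with an adjusted p of up to 0.104 over all alternatives, and without DMOG replicate 5 the adjusted p was 0.00856.

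Lox, the founding member of the family, had 1.699, 1.94 and 2.10 FPKM with PBS, 2.01, 3.19 and 3.37 FPKM with DMOG and 2.09, 2.28 and 3.15 FPKM with roxadustat. The 2 lowest DMOG libraries, replicates 4 (2.13 FPKM) and 5, lay near the highest PBS library and the other 4 had at least 3.12 FPKM. On the log2 scale the change was 0.46 ± 0.11 (SE, adjusted p = 0.0093) with DMOG, a call kept in all 28 alternatives. With roxadustat it was 0.28 ± 0.11 (adjusted p = 0.194), with a 95% interval of 0.03 to 0.52.

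Loxl4, a member of the Loxl2 branch of the family whose promoter with a single GCGTG is printed above, fell with both drugs. It had 0.918, 0.994 and 1.19 FPKM with PBS, 0.666, 0.732 and 0.937 FPKM with DMOG and 0.468, 0.566 and 0.793 FPKM with roxadustat. Every roxadustat library lay below every PBS library, and DMOG replicate 4 was the only DMOG library within the PBS range. Its log2 fold change was -0.26 ± 0.08 (SE, adjusted p = 0.0314) with DMOG and -0.47 ± 0.08 (adjusted p = 0.00305) with roxadustat. The DMOG call was lost, with an adjusted p of up to 0.0733, on leaving out PBS 3 or 4 or DMOG 1, 2, 3 or 6, and the roxadustat call was kept in all 28 alternatives.

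Loxl1 had 2.18, 2.35 and 2.61 FPKM with PBS, 1.33, 2.07 and 2.38 FPKM with DMOG and 1.54, 1.81 and 2.09 FPKM with roxadustat, and did not pass the test with either drug (log2 fold change -0.23 ± 0.10, adjusted p = 0.103, and -0.34 ± 0.10, adjusted p = 0.0618). All 6 roxadustat values lay below the PBS values. Without DMOG replicate 5 both comparisons passed, at adjusted p = 0.0437 for DMOG and 0.0351 for roxadustat. The roxadustat value stayed at -0.34, since no DMOG library enters it, and only the shared spread and the adjustment changed. Loxl3 had a median of 0.995 FPKM with PBS, 0.979 FPKM with DMOG and 0.873 FPKM with roxadustat, with log2 fold changes of 0.00 ± 0.10 (adjusted p = 0.991) and -0.12 ± 0.10 (adjusted p = 0.552). The 95% interval of the DMOG value was -0.21 to 0.21.

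**Figure D3:**
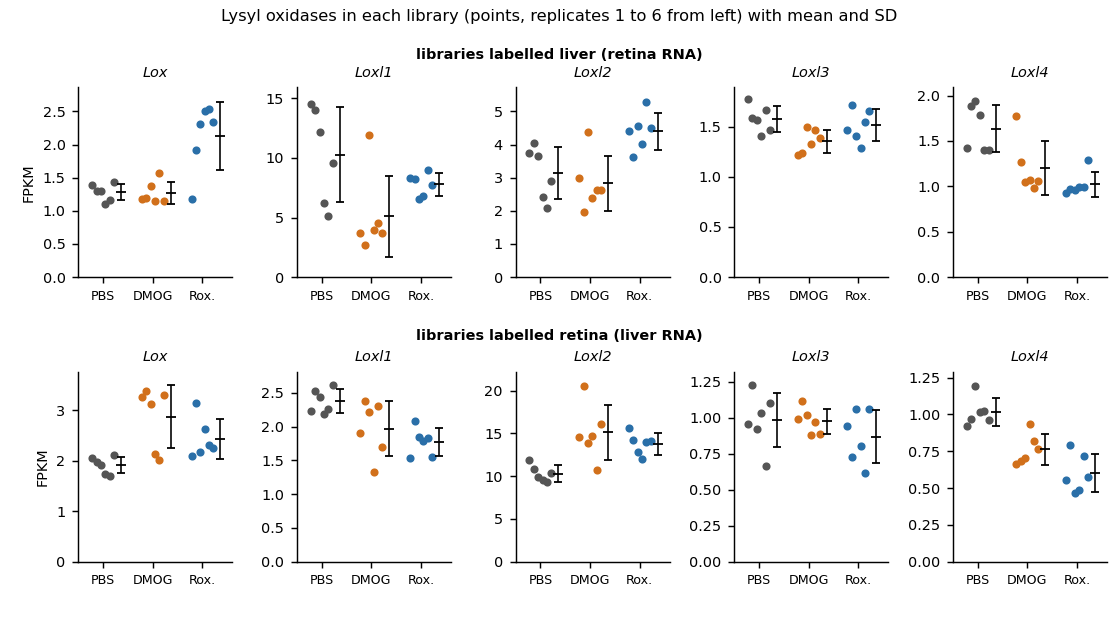
FPKM of Lox and Loxl1 to Loxl4 in each library, with replicates 1 to 6 of each treatment from left to right and the mean and SD (n = 6) in black, each axis starting at 0, for retina RNA (label liver, top) and liver RNA (label retina, bottom). Loxl4 is low with roxadustat in both rows, Loxl2 is high with both drugs in the bottom row, and the point near 12 FPKM for Loxl1 in the top row is DMOG replicate 3.

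Among the fibrillar chains tested in liver RNA (label retina), 2 of 7 fell with DMOG and 3 of 7 with roxadustat, beside 11.7% and 2.02% of all genes lower, and none rose. Col27a1, a fibrillar chain known from growing cartilage and the member whose printed promoter holds neither motif, fell with both drugs. It had 1.79, 2.93 and 3.501 FPKM with PBS, 0.887, 1.24 and 1.89 FPKM with DMOG and 1.16, 1.64 and 2.24 FPKM with roxadustat. With DMOG, only replicate 5 reached the lowest PBS library, PBS replicate 5. In log2 terms the change was -0.88 ± 0.15 (SE, adjusted p = 0.00107) with DMOG and -0.59 ± 0.15 (adjusted p = 0.0275) with roxadustat. The DMOG call held in all 28 alternatives, and the roxadustat call was lost, with an adjusted p of up to 0.0725 over all alternatives, without PBS 2, 3, 4 or 6 or roxadustat 2, 3 or 5.

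Col5a3, the third chain of collagen V, had 0.813, 0.920 and 1.28 FPKM with PBS and 0.512, 0.635 and 0.801 FPKM with DMOG, groups that did not overlap. Its log2 fold change with DMOG was -0.39 ± 0.10 (SE, adjusted p = 0.0121), kept in all 28 alternatives. With roxadustat it had a median of 0.843 FPKM and the value was -0.09 ± 0.10 (adjusted p = 0.669). The difference of roxadustat from DMOG was 0.30 ± 0.10 (adjusted p = 0.12), which did not pass the test.

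Of the abundant interstitial chains, Col3a1 and Col1a2 fell with roxadustat. Col3a1 had 62.4, 89.4 and 106 FPKM with PBS, 60.2, 72.1 and 86.6 FPKM with DMOG and 45.0, 64.2 and 72.02 FPKM with roxadustat, where PBS replicate 5 was the only PBS library within the roxadustat range. Its log2 fold change with roxadustat was -0.49 ± 0.13 (SE, adjusted p = 0.046) and that with DMOG -0.24 ± 0.13 (adjusted p = 0.209). Col1a2 had 20.3, 32.9 and 37.8 FPKM with PBS, 21.3, 26.3 and 33.3 FPKM with DMOG and 18.4, 21.4 and 23.5 FPKM with roxadustat, where again only PBS replicate 5 lay within the roxadustat range. Its values were -0.51 ± 0.13 (adjusted p = 0.0293) with roxadustat and -0.21 ± 0.13 (adjusted p = 0.255) with DMOG.

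Its partner chain Col1a1 had a median of 19.9 FPKM (10.8 to 26.1) with PBS and 12.5 FPKM (10.5 to 16.4) with roxadustat, which is -0.51 ± 0.19 on the log2 scale and did not pass the test (adjusted p = 0.143). Its PBS libraries spread more widely. With DMOG it was -0.24 ± 0.19 (adjusted p = 0.376). Col5a1, which nucleates collagen I fibrils, was just outside the threshold with roxadustat at -0.37 ± 0.10 (adjusted p = 0.05) and passed without DMOG replicate 5 (adjusted p = 0.0265). The calls for Col3a1 and Col1a2 with roxadustat were weak ones. That of Col3a1 was lost, with an adjusted p of up to 0.11, without PBS 1, 2, 3, 4 or 6, DMOG 1 or 4, or roxadustat 2 to 6, and with no level filter (0.0617), and that of Col1a2, up to 0.076, without PBS 1, 2, 3 or 6 or roxadustat 2, 3 or 4. Without DMOG replicate 5 they were 0.026 and 0.0185. Xist, a transcript of female cells, stood at 26.7 FPKM or more in 3 PBS, 4 DMOG and 1 roxadustat libraries and near 0 in the rest, and with its level as a term Col1a2 (adjusted p = 0.0523), Col3a1 (0.0756) and Col6a3 (0.0677) did not pass.

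Markers of the cells that make these chains in liver were measured in the same libraries of the liver RNA (label retina). The summed level of 10 stellate cell markers was 220 to 259 FPKM with PBS, 228 to 282 FPKM with DMOG and 207 to 242 FPKM with roxadustat, with 2 of 10 lower and none higher with roxadustat, and all 10 had a mean of at least 0.5 FPKM. That of 7 fibroblast markers was 106 to 133 FPKM, 108 to 141 FPKM and 102 to 123 FPKM in the same order, and none of the 7 passed with roxadustat. That of 8 pericyte and smooth muscle markers was 49.0 to 73.1 FPKM, 65.0 to 83.2 FPKM and 80.5 to 89.8 FPKM, with 1 higher and 1 lower of 7 tested with roxadustat, where all libraries lay above PBS. These marker counts stand beside 2.16% of all genes higher and 2.02% lower with roxadustat. The part of these cells in the levels of the collagen chains was not tested.

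Outside the fibrillar class, Col12a1, a FACIT chain of tendon and of tissue under load, rose with both drugs in liver RNA (label retina). It had 0.605, 0.740 and 0.772 FPKM with PBS, 0.782, 0.992 and 1.38 FPKM with DMOG and 0.969, 1.13 and 1.27 FPKM with roxadustat, and neither drug's libraries overlapped with PBS. The change in log2 was 0.34 ± 0.08 (SE, adjusted p = 0.00922) with DMOG and 0.42 ± 0.08 (adjusted p = 0.00754) with roxadustat, both kept in all 28 alternatives. These levels lie within 3 times the filter, and the gene had a mean of 0.279 FPKM in retina RNA (label liver), where it was not tested. The other 2 FACIT chains tested, Col14a1 and Col16a1, were negative with both drugs and did not pass. Col14a1 had a median of 48.2 FPKM (43.6 to 53.8) with PBS and 40.9 FPKM (26.8 to 41.7) with roxadustat, groups that did not overlap. The change was -0.34 ± 0.11 in log2 (adjusted p = 0.0847).

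Col6a3, a chain of the beaded filaments of collagen VI, fell with roxadustat. It had 6.36, 8.32 and 10.05 FPKM with PBS and 4.72, 6.15 and 7.15 FPKM with roxadustat, with PBS replicate 5 within the roxadustat range and the rest of PBS above it. With roxadustat the change in log2 was -0.39 ± 0.10 (SE, adjusted p = 0.0405), and -0.27 ± 0.10 (adjusted p = 0.0733) with DMOG. The call was lost, with an adjusted p of up to 0.0957 over all alternatives, without PBS 1, 2, 3 or 4 or roxadustat 1, 2, 3 or 4, and also with no level filter (0.0566) and with the Xist term. The companion chains Col6a1 and Col6a2 had log2 fold changes between -0.05 and 0.01 with both drugs and did not pass.

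Basement membrane chains of the liver RNA (label retina) passed in no comparison with all libraries. Col4a1 had 37.7, 49.7 and 59.3 FPKM with PBS, 38.4, 59.8 and 67.7 FPKM with DMOG and 36.4, 49.9 and 54.3 FPKM with roxadustat. Its log2 fold change with DMOG was 0.21 ± 0.13 (SE, adjusted p = 0.273), and 0.32 ± 0.11 (adjusted p = 0.0327) without DMOG replicate 5, which was the lowest DMOG library. Col4a2 had 0.10 ± 0.13 (adjusted p = 0.595) with DMOG and -0.09 ± 0.13 (adjusted p = 0.747) with roxadustat. Col18a1, the most abundant chain, had 190, 242 and 302 FPKM with PBS, 166, 216 and 258 FPKM with DMOG and 180, 209 and 245 FPKM with roxadustat, ranges that overlapped. Its log2 fold changes were -0.17 ± 0.12 (adjusted p = 0.31) and -0.19 ± 0.12 (adjusted p = 0.43), with 95% intervals of -0.43 to 0.08 and -0.44 to 0.07.

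The 2 drugs were also compared with each other in liver RNA (label retina). None of 25 genes passed in limma, beside 2.99% of all genes, and 4 had an unadjusted p under 0.05. The share of all genes with such an unadjusted p is not given. Col15a1, the second multiplexin, had the smallest p: 0.418, 0.560 and 1.27 FPKM with DMOG against 0.798, 1.008 and 1.38 FPKM with roxadustat, where DMOG replicate 6 (1.27 FPKM) stood apart from the other 5, which reached at most 0.616 FPKM. Its log2 difference was 0.46 ± 0.14 (SE, adjusted p = 0.079). Without DMOG replicate 5, 2 genes passed beside 16.2% of all genes: Col15a1 at 0.46 ± 0.15 (adjusted p = 0.0428) and Col4a1 at -0.34 ± 0.11 (adjusted p = 0.0429).

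Without that library, 8 genes passed with DMOG beside 35.4% of all genes, namely the 6 named above with Col4a1 and Loxl1, and 9 passed with roxadustat beside 8.74%, namely the 7 named above with Col5a1 and Loxl1. The roxadustat fold changes against PBS were the same with and without it, since no DMOG library enters them. Only the shared spread and the adjustment changed, so these calls are not separate support for a roxadustat effect. Scaling every library to the same total made more genes fall. Among all genes called, the higher share was 41.4% with DMOG and 51.7% with roxadustat as deposited, and 17.8% and 31.4% at equal totals, and the called members came to 11 for each drug, with no called member turning direction.

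In retina RNA (label liver), Lox rose and Loxl4 and Col5a3 fell with roxadustat, 3 of 34 genes tested beside 2.34% of all 13779 genes (1.69% higher). With DMOG, Col6a3 fell and no other gene passed, 1 of 34 beside 1.07% of all genes. The median log2 fold change over the 34 genes was -0.28 with DMOG and -0.15 with roxadustat, against 0.01 and 0.00 for all genes, and 32 of the 34 DMOG values were negative, of which 16 had an unadjusted p under 0.05. No share of all genes stands beside these counts, which are description only. Lens markers were also lower with DMOG, and in part with roxadustat, in these libraries, as given below. With the lens level as a term, none of the 3 roxadustat calls was kept.

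Lox had 1.11, 1.30 and 1.43 FPKM with PBS, 1.14, 1.19 and 1.57 FPKM with DMOG and 1.18, 2.32 and 2.54 FPKM with roxadustat. Roxadustat replicate 1 (1.18 FPKM) lay within the PBS range and the other 5 lay above it. With roxadustat the log2 fold change was 0.54 ± 0.12 (SE, adjusted p = 0.0171) against PBS and 0.55 ± 0.12 (adjusted p = 0.0186) against DMOG, while DMOG against PBS gave -0.01 ± 0.12 (adjusted p = 0.974, 95% interval -0.26 to 0.23). The roxadustat call was kept on leaving out any of the 18 libraries and lost with only the 2 groups compared in the fit (adjusted p = 0.0637), and the difference from DMOG was lost, with an adjusted p of up to 0.0566, without DMOG 2, 4 or 6 or roxadustat 3, 4 or 5.

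Loxl4 had 1.40, 1.60 and 1.94 FPKM with PBS, 0.981, 1.07 and 1.78 FPKM with DMOG and 0.924, 0.979 and 1.29 FPKM with roxadustat. All roxadustat libraries were below all PBS libraries, and DMOG replicate 1 (1.78 FPKM) was the only DMOG library within the PBS range. Its change on the log2 scale was -0.49 ± 0.10 (SE, adjusted p = 0.0144) with roxadustat, kept on leaving out any library, and -0.34 ± 0.10 (adjusted p = 0.137) with DMOG.

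Loxl2 had 2.10, 3.27 and 4.04 FPKM with PBS, 1.98, 2.62 and 4.36 FPKM with DMOG and 3.63, 4.45 and 5.29 FPKM with roxadustat, with overlap between all 3 groups. It did not pass against PBS (roxadustat 0.45 ± 0.15, adjusted p = 0.12, and DMOG -0.13 ± 0.15, adjusted p = 0.716), nor between the drugs (0.58 ± 0.15, adjusted p = 0.0659). Without DMOG replicate 3, the highest DMOG library, the value between the drugs was 0.70 ± 0.13 (limma adjusted p = 0.0106). That library was set apart because it was high for genes of this group. The value without it is therefore not separate support for a difference between the drugs.

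Loxl1, the most abundant lysyl oxidase here, had 5.12, 10.9 and 14.5 FPKM with PBS, 2.69, 3.84 and 11.97 FPKM with DMOG and 6.58, 7.996 and 8.97 FPKM with roxadustat. DMOG replicate 3 held 11.97 FPKM and the other 5 DMOG libraries held at most 4.55 FPKM. On the log2 scale DMOG gave -1.01 ± 0.28 (SE, adjusted p = 0.0894), and -1.27 ± 0.21 (adjusted p = 0.00458) without DMOG replicate 3. That library was set apart because it was high for genes such as this, so the second value is not separate support for a fall. Over all alternatives the value ran from -1.27 to -0.31, with a limma adjusted p of up to 0.9998. Loxl3 had -0.16 ± 0.07 (adjusted p = 0.296) with DMOG and -0.05 ± 0.07 (adjusted p = 0.786) with roxadustat, from a median of 1.58 FPKM with PBS.

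Col5a3 had 2.29, 2.91 and 4.18 FPKM with PBS, 2.37, 3.16 and 3.81 FPKM with DMOG and 1.72, 1.86 and 2.49 FPKM with roxadustat. PBS replicates 1 and 5 lay within the roxadustat range. Its log2 fold change with roxadustat was -0.48 ± 0.12 (SE, adjusted p = 0.0444) against PBS and -0.55 ± 0.12 (adjusted p = 0.0258) against DMOG. The first was lost, with an adjusted p of up to 0.111, without PBS 2, 3 or 4, DMOG 2, 3, 4 or 6, or roxadustat 1, 2, 3 or 5, with no level filter (0.0683), with only the 2 groups compared in the fit (0.0914) and with the Xist term (0.0572), and the second, up to 0.226 over all alternatives, without DMOG 1, 2, 4 or 6 or roxadustat 1, 2, 3 or 5. Lox and Col5a3 were the 2 of 34 genes that passed between the drugs, beside 1.31% of all genes.

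**Figure D4:**
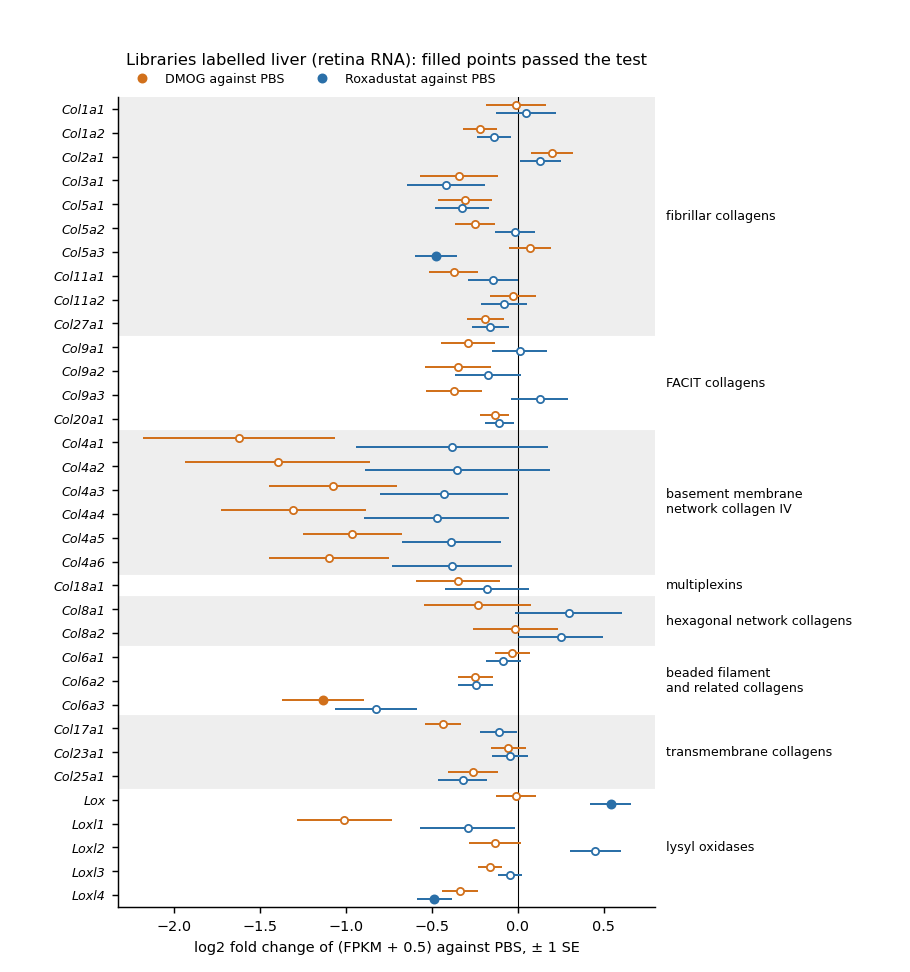
Log2 fold change of FPKM + 0.5 against PBS with its SE for the 34 genes tested in retina RNA (label liver), DMOG in orange and roxadustat in blue, 6 libraries per treatment. Filled points passed the test, 1 with DMOG (Col6a3) and 3 with roxadustat (Lox, Loxl4 and Col5a3), and 5 of the 6 type IV chains have the widest SE, the class running from -0.96 to -1.62 with DMOG.

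Type IV chains had wide spreads, and 5 of the 6 chains had the largest standard errors among the 34 genes tested with DMOG in retina RNA (label liver). Col4a1 had 12.5, 39.3 and 71.8 FPKM with PBS, 6.41, 7.98 and 86.2 FPKM with DMOG and 10.1, 31.5 and 51.9 FPKM with roxadustat. With DMOG, replicate 3 held 86.2 FPKM, more than any other library, and the other 5 held 6.41 to 8.15 FPKM, less than any PBS or roxadustat library. Col4a2 was likewise highest in DMOG replicate 3, at 57.7 FPKM, and had 4.37 to 5.82 FPKM in the other 5 DMOG libraries. For each of the 6 chains the 4 highest libraries were PBS replicates 1 and 2, DMOG replicate 3 and roxadustat replicate 1.

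All 6 type IV chains had an unadjusted p under 0.05 with DMOG and none passed after adjustment. Log2 fold changes ran from -0.96 ± 0.29 (SE, adjusted p = 0.122) for Col4a5 to -1.62 ± 0.56 (adjusted p = 0.19) for Col4a1, with a class median of -1.20, and Col4a2 had -1.40 ± 0.54 (adjusted p = 0.252). With roxadustat the class median was -0.39 and the adjusted p-values for Col4a1 and Col4a2 were 0.782 and 0.795. Without DMOG replicate 3, 8 of 34 genes passed with DMOG, each lower, beside 1.99% of all genes in either direction and 1.62% lower: the 6 type IV chains, Loxl1 and Col6a3. That library was set apart because it was high for these same genes. The calls without it therefore describe the remaining libraries and are not separate support for a fall or for a difference between the drugs. Col4a1 then had -2.20 ± 0.40 (adjusted p = 0.00663) and Col4a2 -1.96 ± 0.38 (adjusted p = 0.00918). Between the drugs, 6 genes then passed beside 1.55% of all genes, with Col4a1 at 1.81 ± 0.40 (adjusted p = 0.0257), Col4a2 at 1.61 ± 0.38 (adjusted p = 0.0372) and Loxl1 at 0.98 ± 0.21 (adjusted p = 0.0243) besides Lox, Loxl2 and Col5a3. Against PBS, roxadustat then gave 3 calls beside 2.32% of all genes, with Col6a3 at -0.83 ± 0.21 (adjusted p = 0.0449) in the place of Col5a3.

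Lens markers moved in the same libraries in part. The lens is enclosed by a capsule rich in collagen IV. The summed level of 9 lens markers in retina RNA (label liver) was 2457 to 28313 FPKM with PBS, 21.0 to 1013 FPKM with DMOG and 256 to 14823 FPKM with roxadustat. All 9 passed as lower with DMOG and 4 of 9 with roxadustat, and each of the 9 had a mean of at least 0.5 FPKM. Of all genes, 1.07% passed in either direction with DMOG and 2.34% with roxadustat. PBS replicates 1, 2 and 6 and roxadustat replicate 1, the 4 libraries with over 5000 FPKM of Cryaa, the alpha A crystallin, include 3 of the 4 libraries that were highest for each type IV chain. DMOG replicate 3, the other library among those 4, had the highest lens sum of the DMOG group. That sum, 1013 FPKM, was below every PBS library and near the 1012 FPKM of roxadustat replicate 5. Roxadustat replicates 2 to 6 had 256 to 1012 FPKM. With the lens level as a term of the model, the log2 fold change of Col4a1 with DMOG was 0.55 ± 0.74 (SE, adjusted p = 0.9998) and that of Col4a2 0.67 ± 0.72, and without the 4 libraries they were -0.95 ± 0.67 (adjusted p = 0.797) and -0.78 ± 0.65 (adjusted p = 0.837). The lens sums of the PBS and DMOG libraries did not overlap, so lens tissue and DMOG cannot be told apart for these chains. This limit holds for the other genes of the retina RNA (label liver) as well. With roxadustat only replicate 1 (14823 FPKM) lay within the PBS range, so lens tissue and roxadustat can be told apart only in part.

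Other cell markers were also read in retina RNA (label liver). PBS replicate 1, one of the 4 highest libraries for each type IV chain, stood above the rest of PBS for the sum of 7 fibroblast markers (140 FPKM against 57.6 to 73.9), 8 pericyte and smooth muscle markers (80.4 against 29.1 to 49.7) and 10 endothelial markers (113 against 70.8 to 81.9). In DMOG libraries those sums were 54.9 to 70.7, 27.2 to 45.6 and 67.5 to 85.96 FPKM, and in roxadustat libraries 50.2 to 71.6, 41.8 to 51.9 and 76.0 to 101 FPKM. With DMOG, 1 of 9 endothelial markers tested was lower (Lyve1, named after its values were seen, adjusted p = 0.0492), beside 1.07% of all genes in either direction. None of 3 fibroblast and none of 6 pericyte markers passed in limma, where 0 and 1 had an unadjusted p under 0.05. Markers of the retinal pigment epithelium and choroid summed to 44.8 to 138 FPKM with PBS, 42.9 to 103 FPKM with DMOG and 77.8 to 130 FPKM with roxadustat. All 7 tested were negative with DMOG, with a median of -0.36 on the log2 scale, and none passed, 1 having an unadjusted p under 0.05. The part of these cells in the levels of the collagen chains was not tested.

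**Figure D5:**
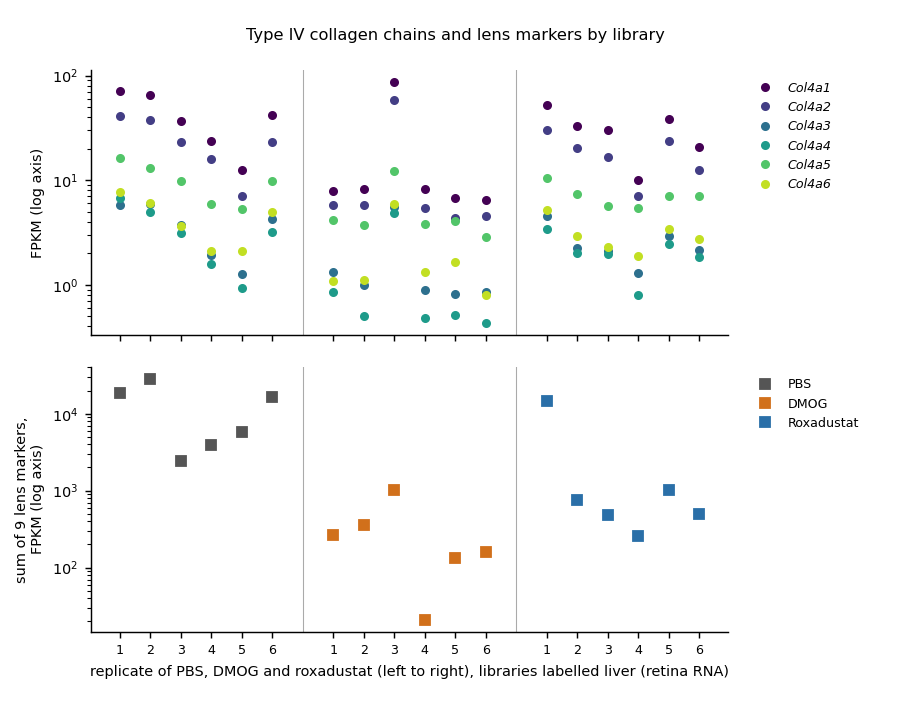
FPKM of the 6 type IV collagen chains (top) and of the sum of 9 lens markers (bottom) in each library of the retina RNA (label liver), both on log axes, with replicates 1 to 6 of PBS, DMOG and roxadustat from left to right. The chains rise and fall together from library to library, DMOG replicate 3 stands above the other 5 DMOG libraries for each of them, and the lens sum is at most 1013 FPKM in all DMOG libraries.

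Col6a3 had 0.613, 0.992 and 1.92 FPKM with PBS, 0.0747, 0.153 and 0.769 FPKM with DMOG and 0.225, 0.298 and 1.09 FPKM with roxadustat. The high DMOG value was replicate 3 and the high roxadustat value replicate 1. In log2 terms DMOG gave -1.13 ± 0.24 (SE, adjusted p = 0.0271) and roxadustat -0.83 ± 0.24 (adjusted p = 0.0749). The DMOG call was lost without PBS 1, 2 or 6 or DMOG 2, 4, 5 or 6, and with the lens level as a term the value was -0.01 ± 0.26 (adjusted p = 0.9998). Without the 4 libraries of highest Cryaa its mean fell under the filter and it was not tested. The roxadustat calls were read against the lens in the same way. Lox was 0.38 ± 0.14 (adjusted p = 0.36), Loxl4 -0.52 ± 0.14 (adjusted p = 0.121) and Col5a3 -0.60 ± 0.15 (adjusted p = 0.111) with the lens level as a term. Without the 4 libraries Lox was 0.74 ± 0.10 (adjusted p = 0.000646), Loxl4 -0.52 ± 0.13 (adjusted p = 0.0715) and Col5a3 -0.54 ± 0.15 (adjusted p = 0.102).

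The chains that dominate the retina RNA (label liver) passed in no comparison. Col9a1 had 45.1, 73.9 and 111 FPKM with PBS, 52.7, 58.4 and 70.4 FPKM with DMOG and 53.5, 74.95 and 89.3 FPKM with roxadustat, with log2 fold changes of -0.29 ± 0.16 (adjusted p = 0.425) and 0.01 ± 0.16 (adjusted p = 0.986). Its PBS libraries spread more widely than either drug group. Col9a3 had -0.37 ± 0.16 (adjusted p = 0.327) and 0.13 ± 0.16 (adjusted p = 0.748), and Col23a1 had -0.06 ± 0.10 (adjusted p = 0.837) and -0.05 ± 0.10 (adjusted p = 0.873). Col17a1, a transmembrane collagen of epithelial anchorage, was just outside the threshold with DMOG at -0.43 ± 0.11 (adjusted p = 0.051).

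The interstitial chains were low in this tissue. Col1a1 had a median of 0.970 FPKM (0.514 to 1.60) with PBS, and log2 fold changes of -0.01 ± 0.17 (adjusted p = 0.987) with DMOG and 0.05 ± 0.17 (adjusted p = 0.924) with roxadustat. Col1a2 had -0.22 ± 0.10 (adjusted p = 0.334) and -0.14 ± 0.10 (adjusted p = 0.505). Col3a1 had -0.34 ± 0.23 (adjusted p = 0.504) and -0.42 ± 0.23 (adjusted p = 0.354), with PBS replicate 5 at 4.34 FPKM and no other PBS library above 1.40 FPKM. Col18a1 had -0.35 ± 0.25 (adjusted p = 0.538) and -0.18 ± 0.25 (adjusted p = 0.765), from 9.94, 21.6 and 28.0 FPKM with PBS.

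The response to DMOG differed between the tissues for 6 of the 20 genes tested in both, beside 15.9% of all 11101 genes compared. These values are the log2 fold change in retina RNA (label liver) minus that in liver RNA (label retina). Loxl2 differed by -0.64 ± 0.19 (SE, adjusted p = 0.0199), with a rise in liver RNA (label retina) and -0.13 in retina RNA, and Col27a1 by 0.69 ± 0.18 (adjusted p = 0.00994), with a fall in liver RNA and -0.19 in retina RNA. Both held in all 42 alternatives, none of which used a lens term or left out the 4 libraries of highest Cryaa together. The part of lens tissue in both differences was not tested. Col4a1 differed by -1.83 ± 0.60 (adjusted p = 0.0341), and lost its call, with an adjusted p of up to 0.0656, without PBS 1 or 2 or DMOG 1, 2, 4, 5 or 6 (label liver) or DMOG 1, 4 or 6 (label retina). Col6a3 differed by -0.86 ± 0.27 (adjusted p = 0.0252) and lost its call without PBS 1 or 2 (label liver) and with a pseudocount of 1 (adjusted p = 0.0741). No lens term was used in this test of the difference. With the lens level as a term within retina RNA (label liver), the DMOG values were 0.55 for Col4a1 and -0.01 for Col6a3. For these genes, a difference between tissues and lens tissue in the libraries cannot be told apart. Lox at -0.47 ± 0.17 (adjusted p = 0.0493) and Col5a3 at 0.45 ± 0.16 (adjusted p = 0.0498) were at the threshold and each lost its call on leaving out any of 28 of the 36 libraries.

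The response to roxadustat was not shown to differ between tissues for any of the 20 genes in limma, beside 2.24% of all genes, and 4 of 20 had an unadjusted p under 0.05, namely Col5a3, Col27a1, Col1a2 and Col1a1. The share of all genes with such an unadjusted p is not given. For Loxl4 the roxadustat values were -0.49 in retina RNA (label liver) and -0.47 in liver RNA (label retina), a difference of -0.02 ± 0.13 (adjusted p = 0.968). For Loxl2 they were 0.45 and 0.40, a difference of 0.05 ± 0.19 (adjusted p = 0.935), and for Lox 0.54 and 0.28, a difference of 0.26 ± 0.17 (adjusted p = 0.465). No lens term was used in this test either. With the lens level as a term within retina RNA (label liver), Lox and Loxl4 did not pass with roxadustat.

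The enzymes that modify collagen chains before secretion are given for context. In liver RNA (label retina) 4 of 17 tested genes of the modification and folding list rose with DMOG and 4 with roxadustat, beside 8.26% and 2.16% of all genes higher, and none fell. The catalytic subunits of collagen prolyl 4-hydroxylase, P4ha2 and P4ha1, rose by 2.44 ± 0.35 (SE, adjusted p = 0.000792) and 1.30 ± 0.22 (adjusted p = 0.00114) with DMOG and by 1.35 ± 0.35 (adjusted p = 0.0364) and 1.19 ± 0.22 (adjusted p = 0.00415) with roxadustat. The lysyl hydroxylase Plod2 rose by 0.58 ± 0.14 (adjusted p = 0.00736) and 0.75 ± 0.14 (adjusted p = 0.00364). Its relative Plod3 rose with DMOG (0.62 ± 0.17, adjusted p = 0.015) and the prolyl 3-hydroxylase gene Leprel1 with roxadustat (0.41 ± 0.12, adjusted p = 0.0492). With DMOG none of 18 passed in retina RNA (label liver), where 3 had an unadjusted p under 0.05, and 3 rose with roxadustat, beside 1.69% of all genes higher: P4ha1 (0.83 ± 0.12, adjusted p = 0.000221), Plod2 (0.53 ± 0.12, adjusted p = 0.0177) and P4hb (0.17 ± 0.04, adjusted p = 0.0231).

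Genes of collagen processing and secretion in liver RNA (label retina) passed as lower for 3 of 9 with DMOG (11.7% of all genes), Ctage5 (-0.55 ± 0.11, adjusted p = 0.00291), Bmp1, a procollagen C-proteinase (-0.42 ± 0.13, adjusted p = 0.0331), and Mia3, which loads procollagen at exit sites (-0.22 ± 0.07, adjusted p = 0.0372), and for 1 of 9 with roxadustat (2.02% of all genes), Mia3 (-0.27 ± 0.07, adjusted p = 0.0459). The counts of the lists that follow stand beside 20.0% of all genes in either direction with DMOG and 4.19% with roxadustat. Among 10 genes of collagen breakdown and its inhibition, Timp1, a metalloproteinase inhibitor, rose with DMOG (1.54 ± 0.28, adjusted p = 0.0015) and roxadustat (1.39 ± 0.28, adjusted p = 0.00694), Mmp15 fell with both (-1.03 ± 0.17, adjusted p = 0.00101, and -0.93 ± 0.17, adjusted p = 0.00334), Timp3 rose with DMOG (0.89 ± 0.26, adjusted p = 0.0207) and Mmp2, the type IV collagenase, fell with roxadustat (-0.56 ± 0.14, adjusted p = 0.0247). Among 16 genes of the fibril-associated matrix, Ctgf (0.46 ± 0.12, adjusted p = 0.0152) and Thbs2 (0.31 ± 0.10, adjusted p = 0.0418) rose with DMOG and Thbs2 with roxadustat (0.44 ± 0.10, adjusted p = 0.0233). Of 7 collagen receptors, Itgb1 (0.20 ± 0.06, adjusted p = 0.032) and Lair1 (0.64 ± 0.22, adjusted p = 0.0491) rose with DMOG and none passed with roxadustat, where 3 had an unadjusted p under 0.05. Of 12 basement membrane partners none passed with DMOG, where none had an unadjusted p under 0.05, or with roxadustat, where 4 had. None of the genes of these 5 lists passed against PBS in limma in retina RNA (label liver), beside 1.07% of all genes with DMOG and 2.34% with roxadustat. An unadjusted p under 0.05 was reached with DMOG by 1 of 9 processing, 5 of 9 breakdown, 5 of 14 fibril-associated, 2 of 5 receptor and 6 of 11 basement membrane genes, and with roxadustat by 1, 2, 1, 0 and 0 of them.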

How the data were processed

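The authors deposited FPKM per gene and library, 1 table per tissue label. Per the submitters' processing notes, bcl2fastq 1.8.3, TopHat2 (version 2), Cuffdiff 2.2.1 and mm9 were used, and per the labels' protocols RNA was extracted with RNeasy and prepared with a stranded total RNA kit with ribosomal depletion. The annotation and the scaling between libraries are not given in the sources used here. A row of totals was dropped and 25 rows named by spreadsheet dates were kept. Groups follow the labels, whose tissues are exchanged. Paralogous collagen chains may share reads.

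Read counts are unknown. Low values of sparse genes stand in a common ratio between 2 libraries for 79 pairs (label liver) and 77 pairs (label retina), of which 69 and 61 matched within 3%. They give a relative depth of 0.774 to 1.25 and of 0.733 to 1.20, with a mean of 0.860 for PBS, 1.08 for DMOG and 1.06 for roxadustat (label liver) and of 1.03, 0.992 and 0.981 (label retina). Whole reads were not recovered and no counting interval is given.

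The fit used limma 3.58.1 (R 4.3.3) on log2(FPKM + 0.5) of the 13779 and 12657 genes whose mean over 18 libraries reached 0.5 FPKM, with 3 group means per table (15 residual degrees of freedom) and a trended prior. Tests were two-sided, p-values were adjusted by Benjamini-Hochberg over those genes, and 0.05 was the threshold. Counts by sign or by unadjusted p stand without the share of all genes and are description only. The difference between tissues was fitted over 36 libraries and 11101 genes with 30 residual degrees of freedom. The fit was run on simulated data with independent normal noise for each gene. These data held no outlying library and no lens tissue, so they do not bear on calls that depend on either. Named genes were those passing any comparison, the lysyl oxidases, Col1a1, Col1a2, Col3a1, Col4a1, Col4a2 and Col18a1, and the 5 highest per table, and of each context list up to 4 of smallest adjusted p. Col5a1, Col14a1, Col15a1, Col17a1 and Col4a5, and genes named for a single library that stood apart, were named after their values were seen. The members and lists were chosen with earlier results of these data known. Alternatives were pseudocounts of 0.1 and 1, no filter or one of 5 FPKM, 2 scalings, other model settings, the replicate number as a block and leaving out each library, with Xist and lens terms and the removal of 4 libraries added after seeing the data. Plots used matplotlib 3.10.9 under Python 3.11.15.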

Additional observations from a re-analysis of the deposited data

Results flagged for a closer look

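For every collagen and lysyl oxidase gene tested in a table, the 3 treatment groups of 6 libraries were checked, 177 groups in all. In 16 of them the gap of 1 library to the nearest other exceeded the 95% critical share of the group's range in Dixon's test. Chance gives about 1 in 20 such groups if values are normal and groups independent. Here the gaps were taken on FPKM and the groups share libraries, and many of the 16 come from DMOG replicate 3 (label liver) alone. The 16 are therefore not separate outliers. Of the 16, 14 were in retina RNA (label liver). There, DMOG replicate 3 stood at 86.2 FPKM for Col4a1, where the other DMOG libraries had 6.41 to 8.15, at 57.7 FPKM for Col4a2 (4.37 to 5.82), 5.49 FPKM for Col4a3 (0.808 to 1.33), 4.81 FPKM for Col4a4 (0.430 to 0.860), 12.2 FPKM for Col4a5 (2.86 to 4.19) and 5.94 FPKM for Col4a6 (0.802 to 1.64). It also stood at 11.97 FPKM for Loxl1, where they had 2.69 to 4.55, and at 0.769 FPKM for Col6a3, where they had 0.0747 to 0.214. In DMOG replicate 1, Loxl4 stood at 1.78 FPKM against 0.981 to 1.27 in the rest of the group. With PBS, Col25a1 stood at 3.63 FPKM in replicate 1 against 1.51 to 2.09, and Col3a1 at 4.34 FPKM in replicate 5 against 0.941 to 1.40. With roxadustat, Col6a3 stood at 1.09 FPKM in replicate 1 against 0.225 to 0.352, Col2a1 at 21.9 FPKM in replicate 4 against 13.7 to 15.1, and Loxl4 at 1.29 FPKM in replicate 6 against 0.924 to 0.994. In liver RNA (label retina), Col15a1 stood at 1.27 FPKM in DMOG replicate 6 against 0.418 to 0.616, and Col14a1 at 26.8 FPKM in roxadustat replicate 3, the lowest, against 36.3 to 41.7.

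By the test of the difference over 36 libraries, the response to DMOG in retina RNA (label liver) minus that in liver RNA (label retina) passed for 6 of 20 genes: Col27a1 at 0.69, Loxl2 at -0.64, Col6a3 at -0.86, Col4a1 at -1.83, Lox at -0.47 and Col5a3 at 0.45 on the log2 scale, with limma adjusted p-values of 0.00994, 0.0199, 0.0252, 0.0341, 0.0493 and 0.0498. No lens term was used in this test. For Col4a1, Col6a3 and the other genes, lens tissue and DMOG cannot be told apart in retina RNA (label liver).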

How the results depend on the processing

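Leaving out each library in turn gave 0 to 8 calls in retina RNA (label liver) with DMOG, 2 to 4 with roxadustat and 0 to 6 between the drugs. In liver RNA (label retina) it gave 5 to 9, 2 to 9 and 0 to 2, and for the difference between tissues 2 to 8 with DMOG and 0 with roxadustat. The highest counts came without DMOG replicate 3 (8 and 6, label liver), without PBS replicate 5 (4, label liver, with roxadustat, and 9, label retina, with DMOG) and without DMOG replicate 5 (9 and 2, label retina). In retina RNA (label liver) the DMOG count of 1 became 2 with a pseudocount of 0.1, 2 at equal totals, 0 with a filter of 5 FPKM and 0 with the lens level as a term. The roxadustat count of 3 became 0 with a filter of 5 FPKM, 1 with the 2 groups compared only, 0 with the lens term and 1 without the 4 libraries of highest Cryaa. Between the drugs the count of 2 became 0 with a filter of 5 FPKM, 5 with the 2 groups only, 1 with the lens term and 1 without those 4 libraries. In liver RNA (label retina) the DMOG count of 6 became 1 with a filter of 5 FPKM and 11 at equal totals, and the roxadustat count of 7 became 4 without a filter, 11 at equal totals and 4 with the Xist term. For the difference with DMOG the count of 6 became 4 with a pseudocount of 1. The filter of 5 FPKM removes most of these genes, and for the other settings the cause was not tested.

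With the lens term the DMOG values of Col4a1 and Col4a2 in retina RNA (label liver) turned to 0.55 ± 0.74 and 0.67 ± 0.72. Those were the 2 of 923 alternatives of 29 single-gene values that turned direction. In 178 a call was lost and in 11 gained. At equal totals the higher share of all calls went from 62.0% to 82.6% between the drugs (label retina), from 56.1% to 76.9% for the difference with DMOG and from 45.8% to 57.7% for that with roxadustat, and the median of all genes moved by at most 0.09.

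Same-numbered libraries did not deviate together (correlations of -0.33 to 0.55, with 0 to 3 of 6 libraries correlating best with their own number). With the replicate block the counts were 1, 3 and 2 (label liver), 7, 8 and 0 (label retina) and 7 and 0 (difference), and in liver RNA (label retina) the roxadustat calls of Col27a1 (adjusted p = 0.0615) and Col6a3 (0.0704) were lost. Depth in reads is unknown, so for genes near 0.5 FPKM the precision is limited by an unknown number of reads. The Xist and lens terms and the removal of the 4 libraries were chosen after seeing the data. DMOG replicate 3 (label liver) was set apart for its levels of these genes, also after seeing the data. So was DMOG replicate 5 (label retina), for its level of Egln3.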
